A study of Mus musculus with 3 samples.

Results

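The complement and efferocytosis genes of macrophages were followed in cultured fetal mouse thymus. They comprised 9 of the 32285 genes in the count matrix: C1qa, C1qb and C1qc, Gas6, Axl, Mertk, Timd4, Trem2 and Mmp12. They were taken by symbol, and each symbol matched 1 feature. The study grew thymic epithelial cells (TECs) as organoids and asked whether such cells support T-cell development once returned to a 3-dimensional thymus-like tissue. A fetal thymic organ culture (FTOC) was an intact fetal thymic lobe laid on a filter membrane. An organoid reaggregate (ORFTOC) was a pellet of dissociated organoid TECs, fetal thymus cells from which epithelium had been removed with EpCAM beads, and mouse embryonic fibroblasts. Both kinds of culture were wild type and were kept in the same medium until culture day 13. The medium held the growth factor FGF7 and, in the first days, the additive thiazovivin, and no other treatment was given. The thymus cells came from C57BL/6J mice, while the strain of the fibroblasts is not stated. The lobes and the epithelium-depleted cells came from younger embryos than the organoid TECs. In each pool 2 cultures were mixed before labelling with a hashtag, an antibody that carries an oligonucleotide barcode, so there was 1 sample per group, no test between pools was possible, and no p-value is given. The pools also differed in the cells put into them, so the kind of culture and the input cells cannot be told apart.

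C1q is the recognition molecule of the classical complement pathway. It is assembled from A, B and C chains and binds dying cells as well as antibody. In the thymus many developing T cells die during selection, and macrophages clear them by efferocytosis, the engulfment of apoptotic cells. Receptors such as Timd4 (Tim-4) bind the exposed phosphatidylserine directly, whereas Gas6 bridges phosphatidylserine to the receptor kinases Axl and Mertk.

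The promoters of C1qb, C1qc, Trem2 and Timd4 are shown so that their start sites can be compared. Those of Mertk, Axl, Gas6 and Mmp12 were also read but are not printed. RefSeq (GRCm38.p6) gave promoters for 8 of the 9 members, from 250 bases before to 50 bases after the start. C1qa had no entry. In the lines below, capitals mark the PU box GAGGAA in C1qb, C1qc and Trem2 and the Maf-type motif TGCTGAC in Timd4, read on either strand.
C1qb, chr4:136886151-136886450, minus strand: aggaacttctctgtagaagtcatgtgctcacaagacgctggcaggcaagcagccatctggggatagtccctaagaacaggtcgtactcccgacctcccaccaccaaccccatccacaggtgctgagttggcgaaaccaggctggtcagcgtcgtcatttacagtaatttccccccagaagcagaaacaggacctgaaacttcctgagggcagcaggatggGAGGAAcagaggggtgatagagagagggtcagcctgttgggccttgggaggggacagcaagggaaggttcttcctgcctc
C1qc, chr4:136892865-136893164, minus strand: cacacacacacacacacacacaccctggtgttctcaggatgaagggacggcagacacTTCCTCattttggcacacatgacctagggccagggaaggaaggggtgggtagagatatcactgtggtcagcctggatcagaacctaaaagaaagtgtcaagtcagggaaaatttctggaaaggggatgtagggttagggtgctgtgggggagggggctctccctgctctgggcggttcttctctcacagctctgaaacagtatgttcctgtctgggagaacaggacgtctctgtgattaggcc
Trem2, chr17:48346151-48346450, plus strand: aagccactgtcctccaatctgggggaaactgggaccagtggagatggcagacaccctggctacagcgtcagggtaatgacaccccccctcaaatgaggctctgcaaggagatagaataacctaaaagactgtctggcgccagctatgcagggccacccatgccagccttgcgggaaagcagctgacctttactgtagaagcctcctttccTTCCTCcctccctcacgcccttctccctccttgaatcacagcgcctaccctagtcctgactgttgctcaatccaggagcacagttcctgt
Timd4, chr11:46810549-46810848, plus strand: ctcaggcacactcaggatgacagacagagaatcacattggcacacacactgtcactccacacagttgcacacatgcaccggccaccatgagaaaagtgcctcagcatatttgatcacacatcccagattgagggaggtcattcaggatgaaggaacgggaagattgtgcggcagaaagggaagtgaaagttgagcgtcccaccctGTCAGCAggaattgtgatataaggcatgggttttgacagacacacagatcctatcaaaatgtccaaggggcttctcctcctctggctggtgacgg
The PU box began 30 bases before the start in C1qb, 193 bases before it in C1qc and 40 bases before it in Trem2. It was also found in Axl, 130 bases before the start, and in the first of 2 Mmp12 promoters, 86 bases before it. The second Mmp12 promoter held the AP-1 motif TGACTCA 44 bases before its start, and the Timd4 promoter held the Maf-type motif 45 bases before the start. No match to the 3 motifs lay in the windows of Mertk and Gas6. Of all 32851 promoters of this length, 28.3% held the PU box, 5.20% the AP-1 motif and 4.67% the Maf-type motif, so these matches describe the letters only.

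Counts were of unique molecular identifiers (UMIs), each standing for 1 captured RNA molecule read from its 5′ end. A level is given as UMIs per 1000000 UMIs of a group of cells (CPM), with a 95% exact Poisson interval where it is printed. After filtering, 8392 cells remained, 4144 from FTOC and 4248 from ORFTOC, with medians of 4903 and 8020.5 UMIs per cell. Clusters were formed without the 9 members. Macrophage-like cells numbered 177 (42 FTOC and 135 ORFTOC, with medians of 13749 and 20394 UMIs) and were led by Lyz2, Ccl6, Clec4n, Gpnmb and Lgals3. The 16 macrophage markers summed to 25026 CPM there and to 1430 CPM in dendritic-like cells. Their sum was 225 CPM in mesenchymal, 220 CPM in epithelial and 154 CPM in T lineage-like cells. UMIs of all 16 were also found in epithelial and T lineage-like cells, so detection alone did not set the class apart. Of the macrophage-like cells 76.3% (95% Clopper-Pearson interval 69.3 to 82.3%) came from ORFTOC, against 50.6% of all cells. The other classes compared were 29 dendritic-like cells (4 FTOC, 25 ORFTOC), 292 mesenchymal cells (64 and 228) and 2197 epithelial cells (964 and 1233), with 2071 T lineage-like cells (1479 and 592) as cells that should lack the macrophage genes. The dendritic-like cells were led by Ccl17, Ccl22, Apol7c and Fscn1 and had no UMI of Csf1r, Adgre1, Lyz2, Fcgr1, Mrc1 or Cx3cr1. Of the 16 dendritic markers 10 had a UMI in them, and the list summed to 10223 CPM, against 316 CPM in macrophage-like cells. The dendritic markers Xcr1, Clec9a, Cd209a, Siglech, Clec10a and Cd207 had no UMI in dendritic-like cells. Wdfy4 and Naaa had 1 UMI each (3.91 CPM) and were higher in macrophage-like cells (26.4 and 20.2 CPM). The class name thus rests on part of the list. The intervals hold counting error alone, and the spread between cultures is unknown.

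Macrophage-like cells held the highest level of 8 of the 9 members among the 5 classes, compared with 10.6% of 16013 genes for which this class was highest. The exception was Gas6, whose level was highest in epithelial cells. The 3 C1q chains stood at 3919.5 (C1qa), 4218 (C1qb) and 3459 CPM (C1qc) in macrophage-like cells. In T lineage-like cells the same chains stood at 18.6, 17.8 and 20.3 CPM, and in epithelial cells at 3.01, 3.99 and 3.18 CPM. For C1qa the level in macrophage-like cells was thus 210-fold (166 to 270.5) that of T lineage-like cells, the next class. Of all UMIs in the 8392 cells, macrophage-like cells held 96.4% for C1qa and 96.2% for both C1qb and C1qc, in 2.11% of the cells.

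**Figure D1:**
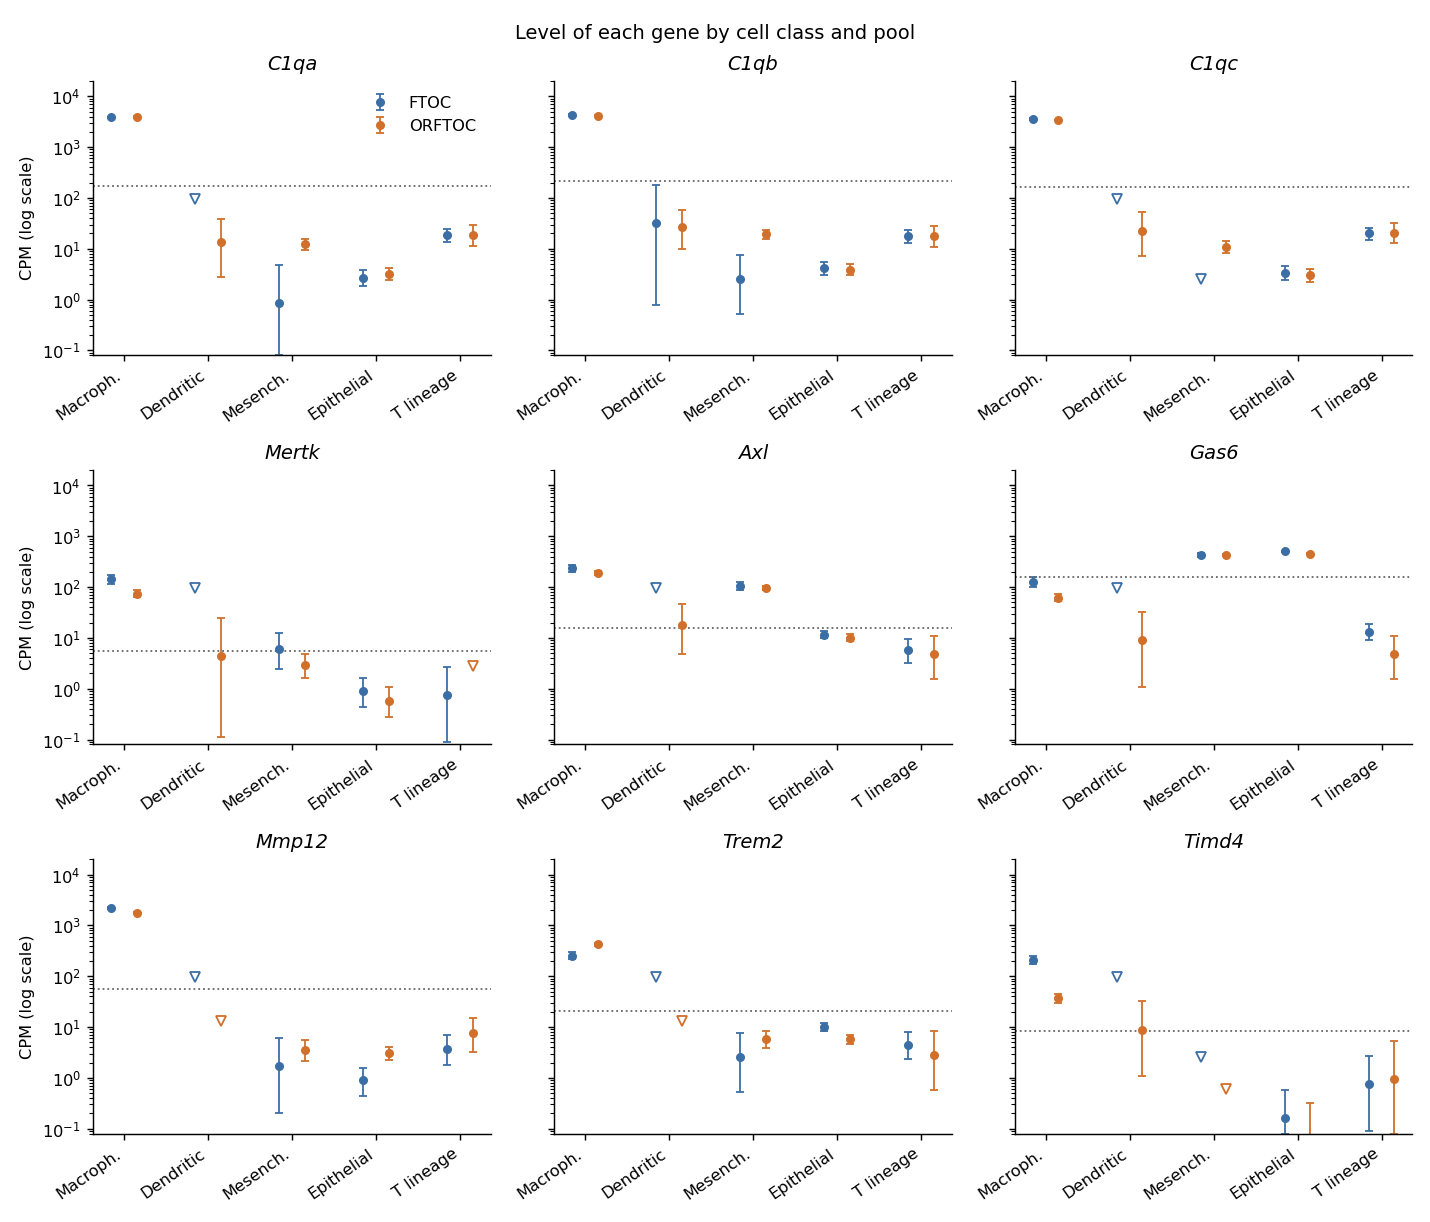
Level of each gene (CPM, log scale) by cell class, with FTOC and ORFTOC as separate points, 95% counting intervals as bars, and an open triangle at the limit that a count of 0 allows. The dotted line is the level in droplets without a cell. Among points with a UMI, macrophage-like cells lie above the other 4 classes within each pool for all genes but Gas6, whose points are highest in epithelial and mesenchymal cells. The limit of 94.8 CPM for dendritic-like FTOC cells lies above some macrophage-like points.

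Free RNA gave a background for these genes. In droplets of at most 100 UMIs, which hold no cell, C1qa stood at 169, C1qb at 215 and C1qc at 166 CPM, so C1q RNA was present outside cells. The make-up of the C1q UMIs differed by a few percentage points between cells and droplets. In macrophage-like cells C1qa, C1qb and C1qc gave 33.8, 36.4 and 29.8% of the C1q UMIs, in T lineage-like cells 32.9, 31.4 and 35.7%, and in empty droplets 30.8, 39.1 and 30.2%. The C1qb share was higher in empty droplets (37.2 to 41.0%) than in macrophage-like cells (35.9 to 36.9%) beyond counting error. With cells thinned to 1000 UMIs, C1qa was found in 1.93% (1.37 to 2.65%) of T lineage-like cells and in 0.364% (0.157 to 0.716%) of epithelial cells. Without thinning the shares were 3.04 and 3.6%, at median depths of 1610 and 12658 UMIs. At matched depth the share in epithelial cells was thus below that of T lineage-like cells and is not read as expression. The source of these UMIs was not tested.

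C1q was a feature of almost every macrophage-like cell. With cells thinned to 5000 UMIs (149 cells; 28 were shallower and left out), a UMI was found in 94.0% for C1qa, 95.3% for C1qb and 92.6% for C1qc. At full depth the shares were 96.0, 94.4 and 94.4%. Across the 177 cells, which share 1 library and differ in depth, the Spearman correlations between pairs of chains were 0.88 to 0.91, as a description. The summed C1q level ran from 0 to 29918 CPM in single cells, so the chains rose and fell together over a wide range of cells. Some cells without any C1q UMI were deep, such as 1 ORFTOC cell of 30440 UMIs. Other than macrophage-like cells, only 1 mesenchymal cell and 1 other immune cell held at least 50 C1q UMIs, against 131 of 177 macrophage-like cells.

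The C1q chains had nearly the same level in both pools. C1qa stood at 3844 CPM in FTOC and 3937 CPM in ORFTOC (ratio of ORFTOC over FTOC 1.02, 0.979 to 1.07). C1qb stood at 4359.8 and 4185 CPM (ratio 0.960, 0.920 to 1.00), and C1qc at 3598 and 3428 CPM (ratio 0.953, 0.909 to 0.999). Single cells overlapped over most of their range, although the highest ORFTOC cells lay above every FTOC cell (for C1qa 11692 against 8514 CPM), with medians of 3434 and 3661 CPM for C1qa, 3809 and 4222 CPM for C1qb and 3225 and 3327 CPM for C1qc. Whether these small ratios exceed the spread between cultures could not be tested.

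Of the 9 members, none was at least 2-fold higher in ORFTOC and 2 were at least 2-fold lower, Timd4 and Gas6. Among the 8942 genes with at least 20 UMIs over both pools in macrophage-like cells, 3.74% were at least 2-fold higher and 5.95% at least 2-fold lower in ORFTOC. The median log2 ratio of the members was -0.31, and that of all genes was -0.08.

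**Figure D2:**
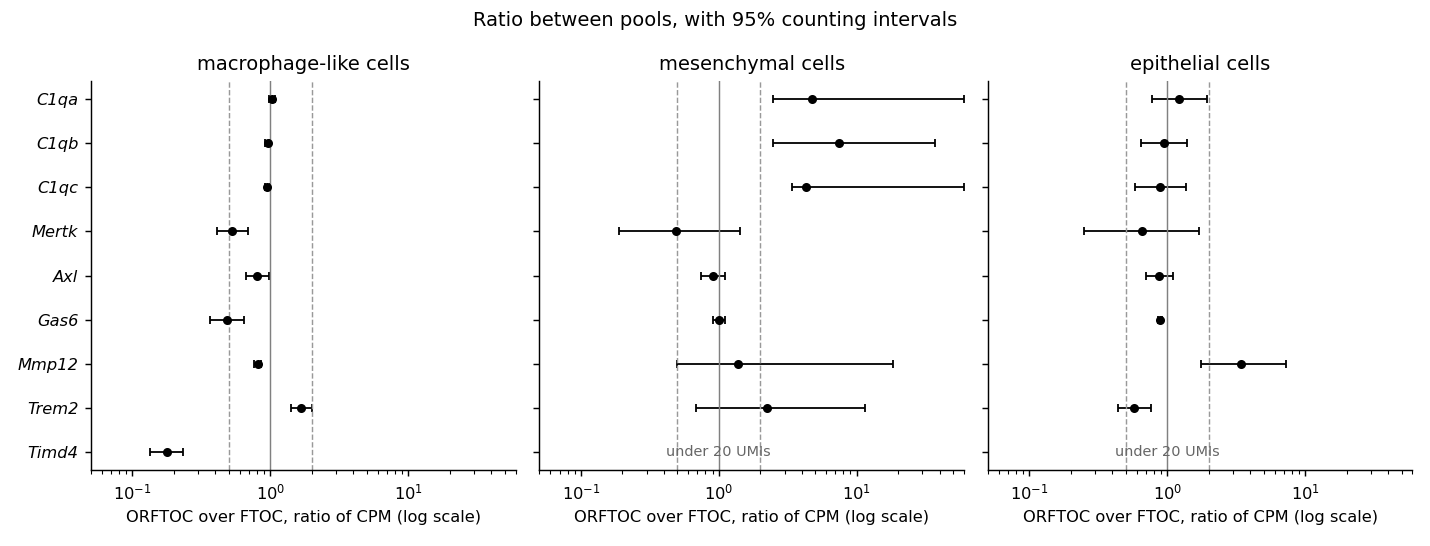
Ratio of the level in ORFTOC over that in FTOC (log scale) for each gene in macrophage-like, mesenchymal and epithelial cells, with 95% counting intervals. Dashed lines mark a ratio of 2 and its inverse, and an FTOC count under 3 was set to 3. In macrophage-like cells Timd4 (0.177) lies farthest from 1, Gas6 (0.482) and Mertk (0.528) lie below it and Trem2 (1.68) above it.

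Within macrophage-like cells, Timd4 gave the largest difference between pools among the members. It encodes Tim-4, a receptor for phosphatidylserine that is typical of long-lived tissue macrophages. Macrophage-like cells held 124 Timd4 UMIs in FTOC and 96 in ORFTOC, or 206 CPM (172 to 246) and 36.6 CPM (29.6 to 44.7). The level in FTOC was 5.64-fold that in ORFTOC (ratio 0.177, 0.134 to 0.233), and only 0.224% of the 8942 genes had a lower ratio. Timd4 was found in 18 of 42 FTOC cells (42.9%, 27.7 to 59.0%) and 20 of 135 ORFTOC cells (14.8%, 9.29 to 21.9%). Thinned to 5000 UMIs, the shares were 42.9% and 7.44%. The highest cell stood at 1091 CPM in FTOC and 757 CPM in ORFTOC, so the levels of single cells overlapped between pools, while the intervals of the full-depth shares did not. In T lineage-like cells 0.145% had a Timd4 UMI, and macrophage-like cells held 92.8% of the 237 Timd4 UMIs of all cells.

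Mertk, the receptor kinase best known for clearing apoptotic cells, was also lower in ORFTOC. Its level was 141 CPM (113 to 175) in FTOC and 74.7 CPM (64.6 to 85.9) in ORFTOC, a ratio of 0.528 (0.407 to 0.690). The counts behind these levels were 85 and 196 UMIs. At full depth, 57.1% of FTOC and 62.2% of ORFTOC cells had a UMI, and the medians of single cells were 45.0 and 46.5 CPM. Thinned to 5000 UMIs the shares were 42.9% and 27.3%, with intervals that overlapped (24.5 to 62.8% and 19.6 to 36.1%). The median cell held 1 Mertk UMI in both pools, so the medians depend largely on depth and cannot settle whether typical cells differed. The mean over cells was 121 CPM in FTOC and 74.8 CPM in ORFTOC. In FTOC 5 of 42 cells held 50.6% of the Mertk UMIs.

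Axl, the related receptor kinase, stood at 233 CPM (196 to 275) in FTOC and 188 CPM (171 to 205) in ORFTOC, a ratio of 0.805 (0.666 to 0.978). The median cell went the other way, at 120 CPM in FTOC and 167 CPM in ORFTOC. A UMI was found in 59.5% of FTOC cells and 78.5% of ORFTOC cells at full depth, and in 67.9% and 57.9% after thinning. The summed level and the mean over cells (185 and 179 CPM) were lower in ORFTOC, while the median cell and the full-depth share were higher there. The median and that share depend in part on depth, which was lower in FTOC, and cannot settle whether typical cells differed. After thinning the share was lower in ORFTOC, with intervals that overlapped (47.6 to 84.1% and 48.5 to 66.8%). Of the UMIs of both receptors together, Axl gave 62.2% in FTOC and 71.5% in ORFTOC macrophage-like cells.

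Gas6, the ligand of both receptors, was low in macrophage-like cells and lower in ORFTOC. Its level was 128 CPM (101 to 160) in FTOC and 61.8 CPM (52.6 to 72.0) in ORFTOC, so FTOC was 2.08-fold higher (ratio 0.482, 0.365 to 0.641). The gene was found in 19 of 42 and 48 of 135 cells. Both levels lay below the 159 CPM of Gas6 in empty droplets, but droplets hold free RNA only, so these are not like measures. Subtracting the empty-droplet profile, scaled to markers of other compartments, removed 13.7% of FTOC and 10.3% of ORFTOC macrophage-like UMIs. Gas6 stayed lower in ORFTOC under all 13 alternatives run, this subtraction among them.

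Trem2 was the only member above a ratio of 1.5 in macrophage-like cells. It encodes a lipid-sensing receptor that signals through Tyrobp. Its level was 253 CPM (214 to 296) in FTOC and 425 CPM (400.4 to 451) in ORFTOC, a ratio of 1.68 (1.42 to 2.0), from 152 and 1115 UMIs. The median cell stood at 53.6 CPM in FTOC and 340.4 CPM in ORFTOC. Trem2 was found in 59.5% (43.3 to 74.4%) of FTOC and 79.3% (71.4 to 85.8%) of ORFTOC cells, and in 53.6% and 75.2% after thinning. The ratio in macrophage-like cells ranked above 92.8% of genes, and the single cells of the pools overlapped from 0 to 1270 CPM.

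Mmp12, macrophage elastase, was unevenly spread over cells. Its summed level was 2193 CPM in FTOC and 1772 CPM in ORFTOC (ratio 0.808, 0.760 to 0.859), yet the median cell stood at 0 and 106 CPM. A UMI was found in 33.3% of FTOC cells and 58.5% of ORFTOC cells, and in 28.6% and 50.4% after thinning. In FTOC 5 cells held 91.8% of the Mmp12 UMIs and 1 cell held 35.9%, without which the FTOC level was 1490.5 CPM. Single cells reached 15507 CPM in FTOC and 20906 CPM in ORFTOC. The summed level and the share of positive cells pointed in opposite directions, and with equal weight to every cell the ratio was 1.22.

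**Figure D3:**
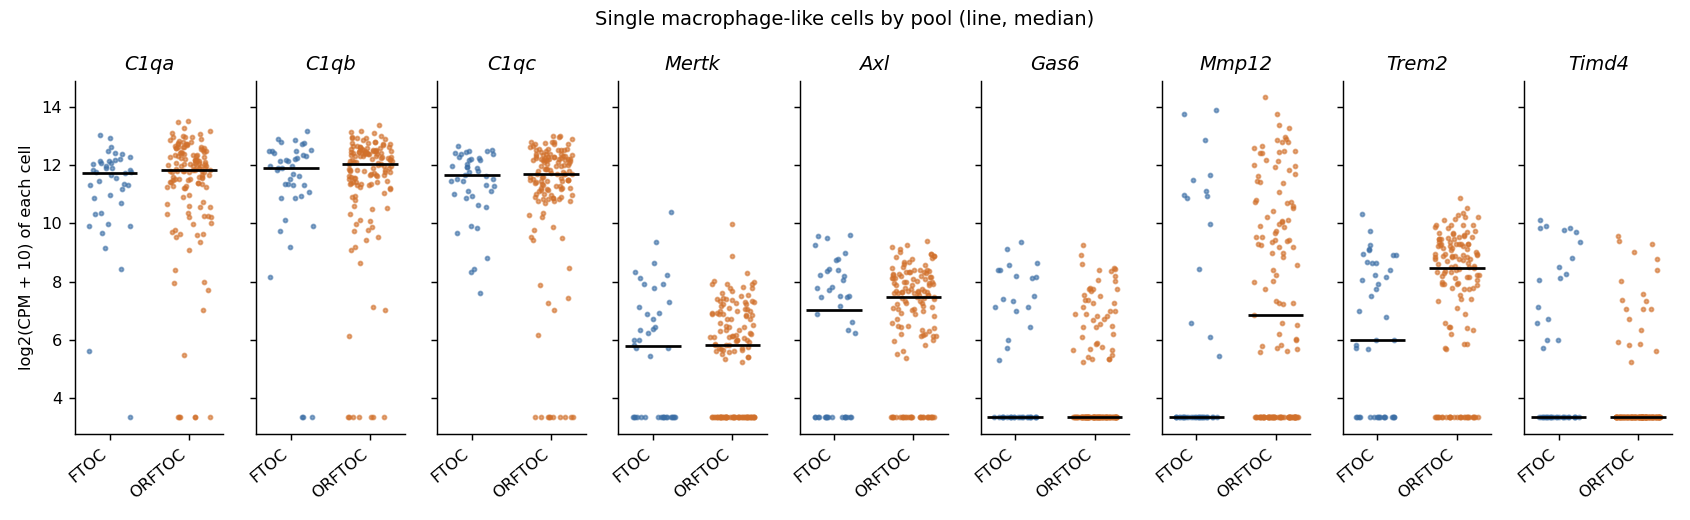
Each point is 1 macrophage-like cell, by pool, at log2(CPM + 10), and the line is the median. The C1q chains form a main band in both pools, with some cells at 0 below it. For C1qa, C1qb and C1qc these number 6, 7 and 10 in ORFTOC and 1, 3 and 0 in FTOC. Timd4 is found in 18 of 42 FTOC and 20 of 135 ORFTOC cells, and Mmp12 runs from 0 to 20906 CPM.

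Other markers moved with the pools in the same cells. The summed level of the 16 macrophage markers was 20446 CPM in FTOC and 26075 CPM in ORFTOC. The 6 monocyte markers summed to 166 and 729.6 CPM, of which S100a4 gave 26.6 and 347 CPM and Fn1 36.6 and 358 CPM, while Chil3 was at 0 in both pools. The 14 T lineage markers, all detected in both pools, summed to 1468 and 345 CPM. The 16 dendritic markers summed to 401 and 296 CPM, with Xcr1 at 0 in both. Of the cells, 21 of 42 in FTOC and 64 of 135 in ORFTOC carried at least 2 UMIs of markers of another compartment. Without these cells the Timd4 level in FTOC was 6.15-fold that in ORFTOC, Mertk was 2.2-fold and Gas6 2.11-fold higher in FTOC, and the ratio of Trem2 was 2.04. The part of these markers in the other ratios was not tested.

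The other members were also read along the C1q level of macrophage-like cells. The 177 cells were placed in 3 groups of 59 by their summed C1q level, with 15, 16 and 11 FTOC cells from the lowest to the highest group. Gas6 stood at 15.6, 91.5 and 103 CPM, Timd4 at 12.2, 61.3 and 122 CPM, Axl at 146, 182 and 252 CPM, and Mertk at 45.6, 105 and 102 CPM. These 4 genes were thus lowest where C1q was lowest. Mmp12 ran the opposite way, at 3568, 1972 and 311 CPM, with a UMI in 37, 35 and 21 cells. Its Spearman correlations with C1qa, C1qb and C1qc were -0.03, -0.06 and -0.11 in FTOC. In ORFTOC they were -0.33, -0.32 and -0.35, so the inverse order was mainly seen there. Trem2 was flat, at 374, 418 and 381 CPM, with overlapping intervals. Over the same groups the monocyte markers summed to 1377, 494 and 154 CPM, and the T lineage markers to 760.4, 458 and 493 CPM. The order of the summed levels is a description, since all cells came from 1 library and the groups mix both pools.

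**Figure D4:**
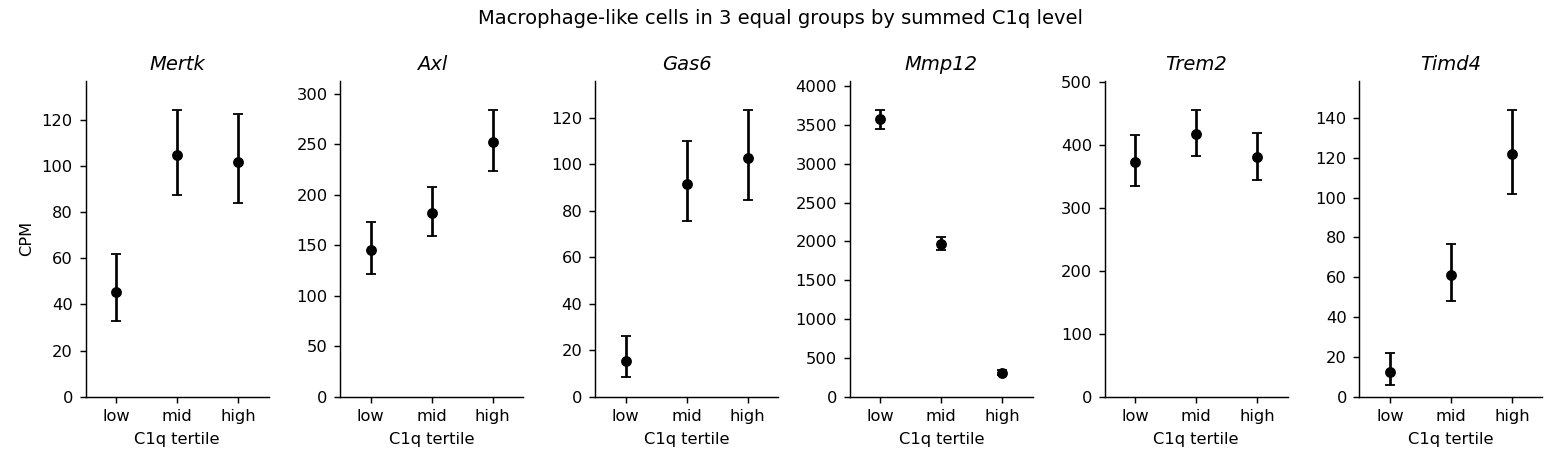
Level (CPM, linear scale from 0) of 6 genes in macrophage-like cells split into 3 groups of 59 by summed C1q level, with 95% counting intervals. Mmp12 falls from 3568 to 311 CPM from the lowest to the highest group, while Timd4 runs from 12.2 to 122 CPM.

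Cells with and without Timd4 were compared within each pool. In FTOC the 18 cells with Timd4 held 151 CPM of Mmp12 and the 24 cells without it 4474 CPM. In ORFTOC the 20 cells with Timd4 held 432 CPM and the 115 without it 2028 CPM. Mmp12 was thus lower in Timd4 cells of both pools. Trem2 followed the same order, at 151 and 366 CPM in FTOC and 282 and 452 CPM in ORFTOC. The receptors had higher values in cells with Timd4. Axl stood at 312 CPM with and 144 CPM without Timd4 in FTOC, and at 230.1 and 179 CPM in ORFTOC, where the intervals overlapped (187 to 281 and 162 to 198 CPM). Mertk stood at 179.8 and 98.6 CPM in FTOC and at 87.8 and 72.2 CPM in ORFTOC, where the intervals also overlapped (61.8 to 121 and 61.4 to 84.3 CPM). Gas6 stood at 136 CPM (98.1 to 183) with and 119.8 CPM (82.9 to 167) without Timd4 in FTOC, which did not differ beyond counting error, and at 128 and 49.0 CPM in ORFTOC. Depth differed in FTOC, with medians of 18481.5 UMIs per cell with and 7510 without Timd4. Cells were thinned to 5000 UMIs in a second random draw, so counts differ slightly from the thinned shares above. Timd4 was found in 11 FTOC cells here and in 12 in the first draw. Mertk was found in 8 of 11 FTOC cells with Timd4 and 5 of 17 without. Mmp12 was found in 1 of 11 and 8 of 17 of these cells. In ORFTOC the counts were 7 of 11 and 26 of 110 for Mertk, and 1 of 11 and 64 of 110 for Mmp12. The monocyte markers summed to 44.2 CPM with and 303 CPM without Timd4 in FTOC, and to 247 and 822 CPM in ORFTOC. The T lineage markers summed to 1605 and 1314 CPM in FTOC, and to 529 and 310 CPM in ORFTOC.

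The dendritic-like cells held few UMIs of the members. Their 255904 UMIs held 3 of C1qa, 7 of C1qb, 5 of C1qc, 4 of Axl, 2 of Gas6, 2 of Timd4 and 1 of Mertk, and none of Mmp12 or Trem2. A count of 0 allowed up to 11.7 CPM, far below the 1850.3 CPM of Mmp12 and the 393 CPM of Trem2 in macrophage-like cells, and 0 of 29 cells allowed a share of cells with a UMI of up to 10.3%, which does not limit the share that express the gene. Their C1qb level of 27.4 CPM (11 to 56.4) did not differ from that of T lineage-like cells beyond counting error. All members but C1qb had 0 UMIs in the 4 FTOC dendritic-like cells, which allowed up to 94.8 CPM, so pools were not compared.

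Mesenchymal cells held Axl and Gas6 RNA and held little of the other members. Axl stood at 96.8 CPM and Gas6 at 432 CPM in this class. Axl was found in 217 of 292 cells at full depth (74.3%, 68.9 to 79.2%) and in 10.3% of cells thinned to 1000 UMIs, against 0.560% of T lineage-like cells at that depth. The Axl level in macrophage-like cells was 2.02-fold that of mesenchymal cells (1.81 to 2.27), and mesenchymal cells supplied 36.7% of all Axl UMIs, close to the 38.3% of macrophage-like cells. Between pools mesenchymal Axl was at 105 CPM in FTOC and 95 CPM in ORFTOC (ratio 0.908, 0.743 to 1.12). Mesenchymal Gas6 was at 431 and 432 CPM (ratio 1.00, 0.909 to 1.11), so neither differed beyond counting error.

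Within the mesenchymal cells the summed Gas6 levels of the pools differed in opposite directions by cluster, in part through single cells. In the 151 cells led by Col1a1 and Tagln, Gas6 stood at 271 CPM in FTOC and 439 CPM in ORFTOC (ratio 1.62, 1.37 to 1.93). Of the 152 FTOC UMIs behind this value 1 cell of 27 held 76, and without it the level was 144 CPM. In the 141 cells led by Cxcl13 and Enpp2, Gas6 stood at 580.3 and 418 CPM (ratio 0.720, 0.632 to 0.821). There 1 FTOC cell of 37 held 23.6% of the FTOC UMIs. Without it the FTOC level was 451 CPM, close to the 418 CPM of ORFTOC, so the difference there rested largely on that cell. Axl was higher in the first group in both pools, at 119 and 104 CPM against 90.9 and 76.2 CPM.

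C1q in mesenchymal cells came mainly from 1 cell. FTOC held 1, 3 and 0 UMIs of C1qa, C1qb and C1qc in 64 cells, and ORFTOC 62, 97 and 56 in 228 cells. The ORFTOC levels were 12.2, 19.1 and 11 CPM. The C1qb ratio was 7.43 with an interval of 2.47 to 36.7, and the C1qc ratio was 4.29 with the FTOC count of 0 set to 3, with a lower interval limit of 3.38. However, 1 ORFTOC cell held 152 of the C1q UMIs, and without it C1qb in ORFTOC was at 4.37 CPM. Among the 8 members with at least 20 UMIs, 4 were at least 2-fold higher in ORFTOC and 1 was at least 2-fold lower (Mertk, 7 against 15 UMIs, ratio 0.493, 0.189 to 1.43), whereas over 11239 genes these shares were 3.41% and 4.71%. Without the cell with most UMIs of each member, 1 of 6 was past 2-fold. All these C1q levels were below those of empty droplets, which hold free RNA only, so they are not like measures.

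Epithelial cells were the main source of Gas6 RNA. They held 13999 of 17131 Gas6 UMIs (81.7%), and the level was 474 CPM, 1.1-fold (1.05 to 1.14) that of mesenchymal cells and above the 74.1 CPM of macrophage-like cells. A UMI was found in 77.7% of epithelial cells at full depth and in 33.5% at 1000 UMIs, against 1.07% of T lineage-like cells thinned likewise. In FTOC the level was 506 CPM and in ORFTOC 451 CPM (ratio 0.891, 0.862 to 0.921). For epithelial cells 1 of 8 members with at least 20 UMIs was at least 2-fold higher in ORFTOC (Mmp12) and none was 2-fold lower, whereas over 14802 genes the shares were 5.38% and 6.05%.

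Gas6 differed far more between epithelial clusters than between pools. It was highest in the 282 cells led by Tbata and Prss16, genes of cortical TECs, at 1311 CPM in FTOC and 1017 CPM in ORFTOC (ratio 0.775, 0.715 to 0.842). The 191 cells led by Lypd1 and Hes6 followed at 847 and 709.6 CPM (ratio 0.838, 0.758 to 0.925). In the 669 cells led by Krt14 it stood at 552 and 437 CPM, and in the 362 cells led by Aqp3 at 522 and 464 CPM (ratio 0.889, 0.786 to 1.00). The 113 cells with Aire and Calcb among their leading genes were low, at 133 and 147 CPM, and the 440 cells led by Bpifa1 were lower still, at 23.6 and 37.8 CPM. The ratio lay farthest from 1 in the 71 cells led by Ccl11 and Fcgbp, at 592 CPM in FTOC and 261 CPM in ORFTOC (ratio 0.442, 0.362 to 0.539). The Tbata and Prss16 cluster came mostly from ORFTOC (250 of 282 cells), while the Aqp3 cluster came mostly from FTOC (307 of 362), so the class level mixes clusters in unlike shares.

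Gas6 and its receptors were highest in different classes, although mesenchymal cells held both Gas6 and Axl. Summed over Axl and Mertk, receptor RNA stood at 283 CPM in macrophage-like cells, 100.4 CPM in mesenchymal cells and 11.4 CPM in epithelial cells, while Gas6 stood at 74.1, 432 and 474 CPM. Axl gave 69.2% of these receptor UMIs in macrophage-like, 96.5% in mesenchymal and 93.8% in epithelial cells. Mertk was at 0.711 CPM in epithelial and 3.53 CPM in mesenchymal cells, so macrophage-like cells held 84.6% of its 332 UMIs. No UMI of Tyro3, the other receptor of this family, was found in macrophage-like cells.

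The epithelial Trem2 UMIs lay mainly in 2 clusters. The class held 220 Trem2 UMIs in 66 cells of 2197 (3.0%, 2.33 to 3.81%), at 9.86 CPM in FTOC and 5.70 CPM in ORFTOC (ratio 0.578, 0.439 to 0.761). Thinned to 1000 UMIs the share was 0.501% (0.250 to 0.894%), which did not differ beyond counting error from the 0.458% (0.210 to 0.868%) of T lineage-like cells. In the Aire and Calcb cluster Trem2 reached 37.1 and 42.8 CPM, from 89 UMIs in 16 of 113 cells, of which 1 FTOC cell held 26 and 1 ORFTOC cell 22. In the Krt14 cluster it stood at 18.5 and 7.85 CPM (ratio 0.424, 0.281 to 0.633), from 108 UMIs in 39 of 669 cells. Together both clusters gave most of the epithelial UMIs, while the Bpifa1 and Lypd1 clusters held none. At the ratio of Trem2 to C1q UMIs found in macrophage-like cells, the epithelial C1q UMIs would go with 10.2 Trem2 UMIs, and the observed number was 21.6 times this value. The same figure was 62.3 for epithelial Axl and 1.31 for epithelial Mmp12.

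**Figure D5:**
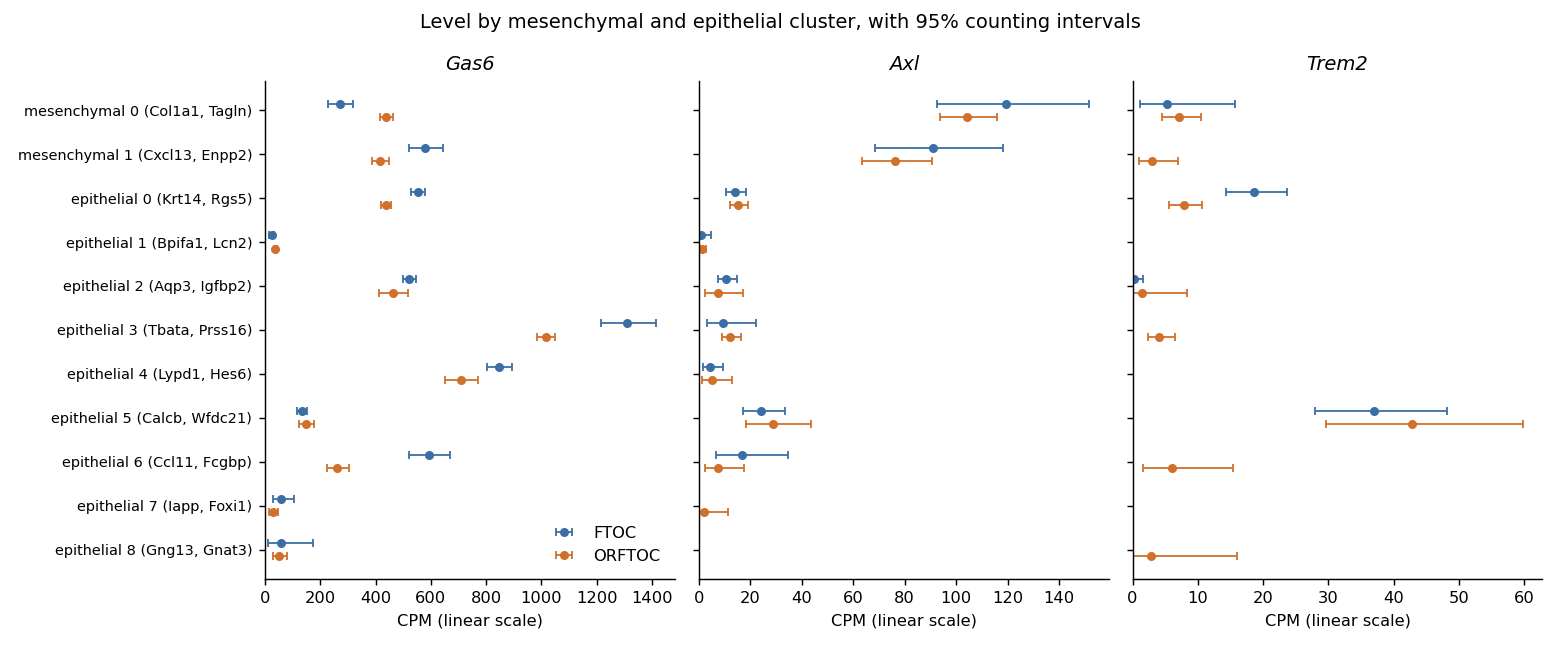
Level (CPM, linear scale from 0) of Gas6, Axl and Trem2 in the 2 mesenchymal and 9 epithelial clusters, each named by its leading genes, with FTOC and ORFTOC as separate points, 95% counting intervals, and no point where the count was 0. Gas6 is highest in the Tbata and Prss16 cluster (1311 and 1017 CPM), Axl in mesenchymal clusters and epithelial Trem2 in the cluster of Calcb.

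Epithelial Mmp12 rested on 1 cell. FTOC held 11 and ORFTOC 52 UMIs (0.889 and 3.03 CPM; ratio 3.40, 1.75 to 7.23), but 1 ORFTOC cell of the cortical cluster held 42 of them. Without it 10 ORFTOC UMIs remained and the ratio was 0.655. Epithelial Axl was at 11.6 and 10.1 CPM (ratio 0.876, 0.698 to 1.1), and the highest level by cluster was in the Aire and Calcb cluster, at 24.3 and 28.9 CPM.

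Further genes of these pathways were read in macrophage-like cells from lists. Of 28 complement genes 14 had at least 20 UMIs, and of these none was at least 2-fold higher and 3 were at least 2-fold lower in ORFTOC, with a median log2 ratio of -0.09. These counts, and those of the lists that follow, stand beside the 3.74% higher and 5.95% lower among all 8942 genes. The most abundant were Cfp (properdin), at 524 CPM in FTOC and 454 CPM in ORFTOC, Calr, at 471 and 478 CPM, and C3, at 426 and 446 CPM. C5ar1, a receptor for the C5a fragment, was lower in ORFTOC, at 139.8 and 61.0 CPM (ratio 0.436, 0.333 to 0.575). Itgam, a chain of complement receptor 3, was at 56.6 and 98.7 CPM (ratio 1.75, 1.22 to 2.57). C3ar1, the receptor for the C3a fragment, was at 215 and 266 CPM (ratio 1.24), and the complement regulator Cr1l at 56.6 and 45.0 CPM (ratio 0.795). C1ra and C1rl were the others past 2-fold.

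Of 29 further efferocytosis ligands and receptors 23 could be read, of which none was 2-fold higher and 4 were 2-fold lower in ORFTOC (median log2 ratio -0.13). Scarb1, a scavenger receptor, was at 106.5 and 36.2 CPM (ratio 0.340, 0.245 to 0.474). Marco and Stab2, also scavenger receptors, and Pros1, also a ligand of Mertk, were past 2-fold lower on 35 to 38 UMIs each. Mfge8, a bridging molecule, was at 1711 and 1328 CPM, Lgals3 at 4588 and 5906 CPM and Cd14 at 156 and 277 CPM (ratio 1.77, 1.43 to 2.22). Sirpa, the receptor of the Cd47 signal, was at 564 and 515 CPM, Cd300lf at 31.6 and 56.4 CPM (ratio 1.78) and the scavenger receptor Stab1 at 128 and 83.1 CPM (ratio 0.649). None of 29 engulfment and digestion genes passed 2-fold in either direction (median log2 ratio -0.22). Among these, Apoe stood at 13730.2 and 11389 CPM, and the protease Ctss at 1802 and 2984 CPM (ratio 1.66, 1.55 to 1.77). The lysosomal proteases Ctsb and Ctsd gave ratios of 0.852 and 0.896. The glucose transporter Slc2a1 gave a ratio of 1.67, the sterol-sensing receptor Nr1h3 a ratio of 0.567 and Rab5a, of early endosomes, a ratio of 0.607.

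The 13 genes of the TREM2 axis and lipid handling were split, with 2 at least 2-fold higher and 2 at least 2-fold lower in ORFTOC (median log2 ratio 0.18). Itgax (123 and 259.6 CPM, ratio 2.11) and Cst7 (34.9 and 73.9 CPM, ratio 2.12) were higher, and Fabp5, a fatty acid-binding protein, fell just short (2112 and 4204 CPM, ratio 1.99). Apoc1 (108 and 22.9 CPM, ratio 0.211) and Spp1 (1869 and 746 CPM, ratio 0.399) were lower. Tyrobp, the signalling partner of Trem2, was at 2631 and 2975 CPM (ratio 1.13, 1.07 to 1.19), and Cd63 at 1717 and 2076 CPM. Of 6 readable matrix metalloproteinases and inhibitors, Mmp13 was 2-fold lower in ORFTOC (394 and 152 CPM) and Mmp2 was higher on 4 and 95 UMIs. Mmp19 was just short of 2-fold lower (ratio 0.507), while Timp2, Mmp14 and Mmp9 had ratios of 1.04, 1.29 and 0.949.

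The 13 readable regulators and iron genes of tissue macrophages held 5 that were at least 2-fold lower in ORFTOC and none higher (median log2 ratio -0.17), beside 5.95% lower and 3.74% higher among all genes. Spic, a transcription factor of iron-recycling macrophages, was at 98.2 and 23.3 CPM (ratio 0.237, 0.163 to 0.345). Slc40a1, the iron exporter ferroportin, was at 309.5 and 103 CPM (ratio 0.333, 0.275 to 0.403). Maf, Id3 and the growth factor Csf1 were the others. Csf1r (622 and 635 CPM) and Spi1, which encodes PU.1 (504 and 683 CPM, ratio 1.35, 1.2 to 1.53), were not past 2-fold. Cebpb had a ratio of 1.1 and Csf2ra, a receptor chain for the growth factor GM-CSF, a ratio of 1.94.

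The genes most like the members were sought over 53 profiles, each a class or cluster in 1 pool with at least 20 cells, by Pearson correlation of log2(CPM + 10). Macrophage-like cells supplied 2 of these profiles, so a high value says mainly that a gene was high there. Nearest to the C1q chains were C3ar1 (r = 0.963), Cd68 (0.947), Il1a (0.940), Ms4a7 (0.934) and Clec4n (0.934). Timd4 was followed most closely by Clec10a (0.973), and Mmp12 by Fcgr4 (0.974). Gas6, with its stromal pattern, was nearest to Epb41l3 (0.959) and Copz2 (0.952), and Axl to Cmklr1 (0.910) and Mmp19 (0.904).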

How the data were processed

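Single-cell RNA-seq of 5′ ends was read from the UMI counts per gene and barcode that the authors deposited, made with Cell Ranger 6.1.2 against mm10 per the submitters' processing notes, together with the deposited hashtag counts. Barcodes with at least 600 genes and 0.4 to 10% mitochondrial UMIs were kept (10245 of 705161), and hashtags were assigned at the 0.99 quantile (8983 single, 590 double, 672 negative). Doublets within a pool (591) were removed by the share of hashtag doublets among 50 neighbours. Cells were clustered without the 9 members by Seurat 5.3.0 and sctransform 0.4.2 on 18 components, and classes were named from marker lists. Summed counts were expressed per 1000000 UMIs, and levels, ratios and shares carry 95% exact Poisson, conditional or Clopper-Pearson intervals (scipy 1.17.1). A member was compared between pools with at least 20 UMIs over both, and named at 2-fold. With fewer than 3 counts in a pool a limit of 3 counts was used. The counting code was tested on simulated data. Members and lists were chosen with earlier results of these data known. Of each pathway list the text names the 3 genes with the highest level and the 2 largest and 2 smallest ratios among genes of at least 50 CPM in macrophage-like cells. Maf, Id3, Csf1, Mmp2, Marco, Stab2, Pros1, C1ra, C1rl and Tyro3 were named outside this rule, after their values were seen.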

Additional observations from a re-analysis of the deposited data

Results flagged for a closer look

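Some ratios between pools pointed in different directions in different classes, and none of these differences was tested. C1qc had a ratio of ORFTOC over FTOC of 4.29 in mesenchymal cells, with the FTOC count of 0 set to 3 and a lower interval limit of 3.38. There 1 cell held 30 of 56 UMIs, and the log2 ratio was -1.38 with the empty-droplet profile subtracted, while its ratio in macrophage-like cells was 0.953. Mmp12 had a ratio of 3.40 in epithelial cells, where 1 cell held 42 of 63 UMIs, and of 0.808 in macrophage-like cells. Trem2 had a ratio of 1.68 in macrophage-like cells and of 0.578 in epithelial cells.

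C1q RNA was also found in barcodes that had been set aside. At least 50 C1q UMIs were held by 35 of 591 barcodes removed as doublets within a pool (5.92%) and by 22 of 590 barcodes with both hashtags (3.73%). Among the cells kept the number was 133 of 8392, and among hashtag negatives it was 0 of 672.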

How the results depend on the processing

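Timd4 in macrophage-like cells stayed at least 2-fold higher in FTOC under all 13 alternatives run (4.90 to 6.15-fold), and Gas6 under 10 of 13 (1.96 to 2.73-fold). Of the 9 members in macrophage-like cells, 2 were past 2-fold. This became 1 with clustering on log-normalised counts or equal weight for every cell, and 4 with cells carrying other markers left out or at a ratio of 1.5. Mmp12 kept its direction under 10 of 13. In mesenchymal cells 5 members past 2-fold became 3 with a hashtag share of at least 80%, and 1 with cells carrying other markers left out or without the cell with most UMIs of each member, an alternative chosen after seeing the data. In epithelial cells 1 became 4 with the hashtag share, 2 with doublets kept or the empty-droplet profile subtracted, 3 at a ratio of 1.5 and 0 without the top cell. The log2 ratio reversed in mesenchymal cells for C1qa (-0.41) and C1qc (-1.38) with the empty-droplet profile subtracted and for Trem2 (-1.05) with the hashtag share. For epithelial Mmp12 it reversed to -2.51 with the hashtag share, -1.92 with doublets kept, -0.45 with the profile subtracted and -0.61 without the top cell. The ORFTOC share of macrophage-like cells was 82.5% with the hashtag share. At full depth the shares of macrophage-like cells with a UMI were 61.0% for Mertk, 74.0% for Axl, 37.9% for Gas6 and 21.5% for Timd4. The causes of these changes were not tested. No paired analysis was possible because each group was 1 pool. The 42 FTOC macrophage-like cells limit every ratio in that class.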

Other observations

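Genes of the same pathways were also read in the stromal classes. C3, the central complement component, stood at 2427 CPM in FTOC and 2417 CPM in ORFTOC mesenchymal cells, and at 108 and 573 CPM in epithelial cells. Mfge8 was at 2715 and 2050.1 CPM in mesenchymal cells. Pros1, also a ligand of Mertk, was at 65.1 CPM in mesenchymal and 37.7 CPM in epithelial cells over both pools. Tyro3 stood at 8.18 and 11.8 CPM in these classes. In epithelial cells 20 complement genes had at least 20 UMIs, of which 7 were at least 2-fold higher and 2 at least 2-fold lower in ORFTOC, beside 5.38% higher and 6.05% lower among all 14802 genes. In mesenchymal cells 17 did, with 2 higher and 1 lower, beside 3.41% and 4.71% of 11239 genes.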
